A study of Mus musculus with 6 samples.

Results

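The GATA factors are transcription factors that bind the DNA letters GATA through a pair of zinc fingers. Gata2, Gata3, Gata4 and Gata6 were taken here as every probe set that the platform annotation gives to 1 of these symbols alone, and they came to 8 probe sets for 4 of the 18193 genes named on the array. The genes were chosen by the log2 differences and p-values of Mest-KO against control, in which Gata3 stood among the genes of smallest p, so what follows about that comparison is a description and not independent evidence. The Mest-KO group held otic vesicles, the epithelial sacs from which the inner ear forms, of mouse embryos at embryonic day 11.5 in which T-Cre had removed conditional Tbx1, and the controls were conditional heterozygotes that carried T-Cre as well. T-Cre is driven by the gene T, which is active in early mesoderm, so the deletion was aimed at the tissue around the vesicle rather than at the vesicle. There were 3 arrays per group, and RNA for an array came from both ears of 3 embryos of 1 genotype, which were pooled after dispase had been used to free the vesicle of the tissue around it. The labels name the 3 pools of a genotype as biological replicates.

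In the mouse, Gata3 is expressed in the otic placode and vesicle and is required for the early shaping of the ear, and in humans the loss of 1 copy of GATA3 causes a syndrome that includes deafness. Gata2 is expressed in the otic vesicle after Gata3 and is needed in the mouse for the semicircular ducts and the fluid space around them, beside its role in blood stem cells and endothelium. Gata4 and Gata6 are known for the development of heart and endoderm. The 2 kinds of member were thus ear regulators, Gata3 and Gata2, and mesoderm and endoderm regulators, Gata4 and Gata6.

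The arrays were alike in their scaling but not in their make-up. Xist RNA, which coats the inactive X chromosome, read 16.1 in Mest-KO 1 and 2331 to 5034 elsewhere at its brightest probe set, where the groups overlapped. Its dimmer probe sets were lower in Mest-KO without overlap. One read 2.17, 429 and 396 in Mest-KO and 914, 1431 and 613 in control. Another read 14.7, 483 and 402 in Mest-KO and 972, 1928 and 902 in control. Whether the share of females differed between the groups was not tested. Eif2s3y, which is Y-linked, read 12.1 in control 2 and 1373 to 2663 elsewhere, so the other 4 pools held both sexes. Mest-KO 3 had a median intensity of 91.0 against 62.1 to 71.0 on the other 5 arrays, and fewer of its probe sets were very dim (18.6% below 16, against 23.5% to 26.9%). Tbx1 had 910, 704 and 713 in the Mest-KO pools and 898, 690 and 766 in the control pools. The log2 difference was -0.03 (SE 0.165 in the fit of all probe sets), with a two-sided exact permutation p of 1, where 0.1 is the smallest that these arrays allow. The deletion was aimed at the tissue that the dissection was meant to remove, and where the probe set lies relative to the deleted part is not stated. The labels were therefore not checked by Tbx1. The vesicle itself was bright in its defining genes, with 13 of 14 markers of otic and other epithelium above the brightness filter. Of all 18193 genes named on the array, 12462 were above it.

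The 2 members that the arrays read brightly are shown here by the DNA in front of their starts, since both lay lower in Mest-KO. RefSeq (build GRCm38.p6) gave 1 start for Gata3 and 2 for Gata2 among the promoters used here, and each line holds the 250 bases before that start, 5′ to 3′ on the strand of the gene. Capitals mark the GC box GGGCGG and the CCAAT box, found on either strand.
Gata3, chr2:9878601-9878850, minus strand: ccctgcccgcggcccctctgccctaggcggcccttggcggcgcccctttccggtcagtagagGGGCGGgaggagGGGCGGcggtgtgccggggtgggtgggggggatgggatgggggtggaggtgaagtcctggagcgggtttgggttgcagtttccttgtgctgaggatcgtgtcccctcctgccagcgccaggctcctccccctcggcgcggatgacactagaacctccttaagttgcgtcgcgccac
Gata2, first start, chr6:88193641-88193890, plus strand: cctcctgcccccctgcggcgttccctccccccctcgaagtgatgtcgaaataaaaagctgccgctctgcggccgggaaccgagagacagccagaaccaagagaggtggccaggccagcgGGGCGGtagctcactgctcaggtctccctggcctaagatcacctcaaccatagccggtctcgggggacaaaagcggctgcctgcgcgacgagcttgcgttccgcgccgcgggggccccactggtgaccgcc
Gata2, second start, chr6:88198414-88198663, plus strand: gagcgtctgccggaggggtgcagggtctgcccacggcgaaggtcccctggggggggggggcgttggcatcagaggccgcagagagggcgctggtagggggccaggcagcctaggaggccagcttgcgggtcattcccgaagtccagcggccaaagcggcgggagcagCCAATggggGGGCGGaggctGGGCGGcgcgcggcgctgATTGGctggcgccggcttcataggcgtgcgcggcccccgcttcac
All 3 stretches were rich in G and C, at 70.0% in front of Gata3 and at 67.2% and 74.0% in front of Gata2. They held 19, 22 and 24 CpG dinucleotides, more than 80.3%, 85.2% and 88% of the 32851 promoters of that length. The GC box stood 2 times in front of Gata3, 188 and 176 bases before the start, 1 time at the first start of Gata2 and 2 times at the second. It occurs in 32.7% of all promoters. The second start of Gata2 also held 2 CCAAT boxes, a motif found in 33.8% of promoters. No GATA box was found in them on either strand, whether spelled AGATAA, with T as its first letter as in TGATAA, with G as its last letter as in AGATAG, or with both changes as in TGATAG. Of all promoters 26.5% hold such a box. Likewise the T-box core GGTGTGA (3.33% of promoters) and the TATA box, spelled TATAAA (12.4%), were not found. This says only that these letters are not in these windows. The Gata3 window lies inside the span that RefSeq gives the gene (chr2:9857078-9887953), so the upstream end of that span was not searched.

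Gata3 was read by 1 probe set, 1448886_at. Its intensity was 1123, 915 and 1123 in the Mest-KO pools, against 2170, 2074 and 2146 in the control pools. The highest Mest-KO pool lay well below the lowest control pool, and the control pools differed little among themselves. Mean intensity was 1054 ± 120 in Mest-KO and 2130 ± 50.1 in control (SD, n = 3 each). On the quantile normalized scale the log2 difference, Mest-KO minus control, was -1.02 (SE 0.107), which put Mest-KO at 49.3% of control with a 95% confidence interval of 41.3% to 59.0%. On the arrays' own ranking of probe sets from dim to bright, Gata3 lay at the 82.4th to 84.9th percentile in Mest-KO and at the 91.0th to 91.4th percentile in control.

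The 2 probe sets of Gata2 lay lower in Mest-KO by much less. The brighter one, 1428816_a_at, had an intensity of 4418, 4329 and 4643 in the Mest-KO pools, against 4859, 5497 and 5846 in the control pools. Its groups did not overlap, but Mest-KO 3 and control 1 were close. Mean intensity was 4464 ± 162 in Mest-KO and 5400.5 ± 501 in control (SD, n = 3 each), and the log2 difference was -0.22 (SE 0.0968), or 85.6% of control with a 95% interval of 72.8% to 100.7%. The other, 1450333_a_at, had 2551, 2940 and 2434 in Mest-KO and 2830, 3122 and 3052 in control. Here Mest-KO 2 lay above control 1, and the log2 difference was -0.18 (SE 0.123 in the fit of all probe sets). The ending a_at marks a probe set designed to read several transcripts of a gene, and which starts each of them covers is not stated. Whether the change of Gata3 differs from that of Gata2 was not tested.

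**Figure D1:**
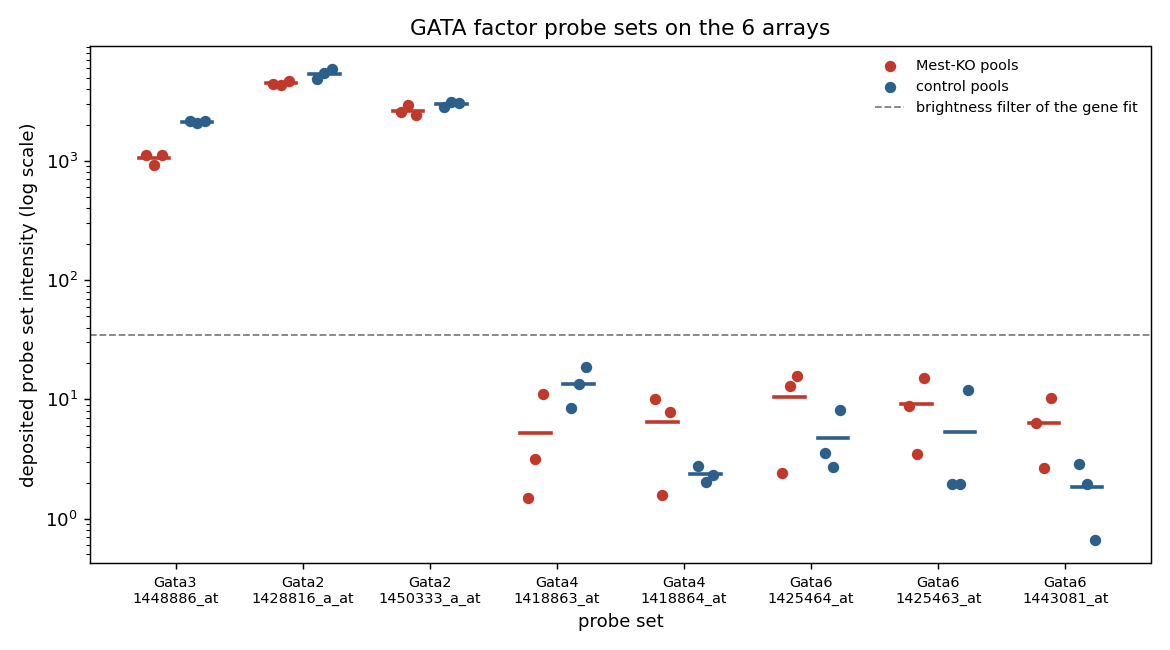
Deposited intensity (log scale) of the 8 GATA factor probe sets in the 3 Mest-KO pools (red, left of each pair) and the 3 control pools (blue), with bars at the group means and a dashed line at the brightness filter of 34.4. Gata3 lies between 915 and 1123 in Mest-KO and between 2074 and 2170 in control, while all probe sets of Gata4 and Gata6 lie at 18.6 or lower.

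In the limma fit across 12462 genes, each read from its brightest probe set and kept above an intensity of 34.4, the Benjamini-Hochberg adjusted p was 0.0970 for Gata3 and 0.909 for Gata2. Neither passed 0.05, and 0 of all genes did (0%). At an adjusted p under 0.10, 0.0562% of genes passed, Gata3 among the 0.0401% that were lower. At an unadjusted p under 0.05, 642 genes or 5.15% passed, 2.91% lower and 2.24% higher, and Gata3 was among them but Gata2 was not. The values of both genes did not overlap between the groups and were lower in Mest-KO, as was the case for 5.86% of all genes tested, out of 10.6% that did not overlap in either direction. With a variance prior that follows brightness (limma's trend), 13 genes passed, 0.104% of those tested, 12 of them (0.0963%) lower in Mest-KO, and Gata3 was 1 of them (limma adjusted p = 0.000973) while Gata2 was not (0.696). Gata3 ranked 7th of all genes by p without the trend and 4th with it, and 39 genes, Gata3 included, had a log2 difference at least as low. Since the contrast itself brought Gata3 to attention, nothing further is read from these calls.

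The spread among pools of a group, taken over both groups together, was ordinary for the brightness of both genes. This SD within groups was 0.122 log2 units for Gata3, against a median of 0.118 over the 2050 genes within 0.5 log2 units of its mean, and 46.8% of those genes varied more. For Gata2 it was 0.1005, against a median of 0.0923 over 981 such genes. The groups were unlike for Gata3, with an SD of 0.169 in Mest-KO and 0.0345 in control. For Gata2 the SD was 0.0849 in Mest-KO and 0.114 in control. The log2 difference of Gata3 ran from -1.08 without Mest-KO 3 to -0.92 without Mest-KO 2, and over the 4 pools of both sexes it was -1.07 (SE 0.151). That of Gata2 ran from -0.28 without control 1 to -0.17 without control 3, a span of over 1.5 times, and in the pools of both sexes it was -0.21 (SE 0.143). The share of each sex within those pools was not balanced in the fit.

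**Figure D2:**
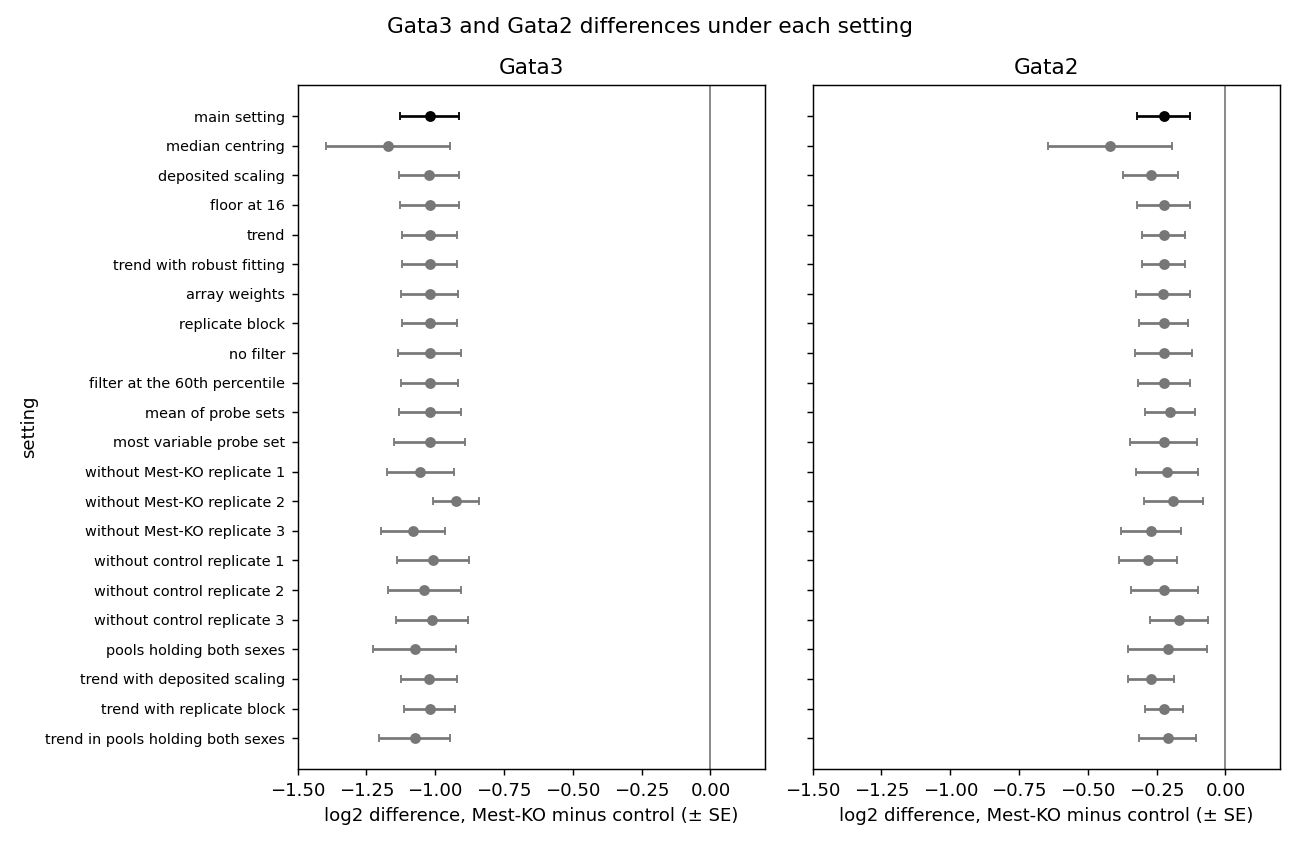
Log2 difference, Mest-KO minus control, of Gata3 (left panel) and Gata2 (right panel) under each setting of the gene fit, with bars of 1 SE. Gata3 stays between -1.17 and -0.92 and Gata2 between -0.42 and -0.17, and the lowest value of each comes from median centring.

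The heart and endoderm members were dim on every array. Gata4 had an intensity of 1.47, 3.14 and 11.1 in Mest-KO and 8.43, 13.4 and 18.6 in control at probe set 1418863_at, and of 10.1, 1.57 and 7.84 in Mest-KO and 2.73, 2.03 and 2.32 in control at 1418864_at. Gata6 had 8.81, 3.47 and 15.2 in Mest-KO and 1.94, 1.95 and 12.01 in control at 1425463_at. At 1425464_at it had 2.41, 12.9 and 15.7 in Mest-KO and 3.56, 2.70 and 8.06 in control. At 1443081_at it had 6.29, 2.65 and 10.2 in Mest-KO and 2.87, 1.95 and 0.665 in control. The deposited intensities of the groups overlapped at each of these 5 probe sets. Once normalized, they lay apart at 1418863_at of Gata4, with Mest-KO lower, and at 1443081_at of Gata6, with Mest-KO higher. All values were far below the filter, so no direction is read from this. Mest-KO 3, the array with few very dim probe sets, gave the highest Mest-KO intensity at 4 of the 5.

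None of these 5 probe sets passed in the limma fit of all 45037 probe sets (adjusted p of 1.00 for each), in which 1 probe set passed, 0.00222% of those tested. They lay between the 1.62nd and the 28.6th percentile of all probe sets on their arrays. For scale, probe sets of RNAs that a pool of 1 sex cannot hold read 16.1 (Xist) and 12.1 (Eif2s3y), in the same range of intensity. The table held no detection calls, so no level and no fold is given for Gata4 and Gata6, and these values do not show that the genes were silent. Of all 8 member probe sets, 2 had deposited intensities that did not overlap and were lower in Mest-KO, and none were higher, where 3.54% of all probe sets were lower in this way and 8.69% did not overlap in either direction. Gata3 was also the member probe set that passed with the trend in the fit of all probe sets, where 0.0289% passed. Of the other GATA genes, Gata1, the red cell factor, had 16.5, 38.9 and 20.8 in Mest-KO and 16.5, 13.0 and 25.1 in control. Gata5, another heart and endoderm factor, lay between 0.929 and 65.3 over its 2 probe sets and all arrays, and both genes were below the filter.

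Genes around the members were named by RefSeq order on the chromosome and looked at after the members' values were known. Those around Gata3 did not share the size of its difference. Next to Gata3, the nearest 3 genes tested on either side were Celf2, Usp6nl and Echdc3, and Taf3, Atp5c1 and Kin. Their log2 differences ran from -0.16 (Taf3, SE 0.114) to 0.10 (Usp6nl, SE 0.114). Around Gata2, the genes Rpn1, Rab7, H1f10, Eefsec, Ruvbl1 and Sec61a1 ran from -0.16 (Sec61a1, SE 0.0938) to 0.07 (Rab7, SE 0.0818). Gata2 itself, at -0.22 (SE 0.0968), was not far from Sec61a1. None of the 12 neighbours passed in the limma fit (smallest adjusted p 0.909, for Taf3 among others).

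GATA factors act with cofactors. Of 24 cofactor and complex genes, 21 were tested and Lyl1, Runx1 and Erg were below the filter. Of the 21, 15 lay higher and 6 lower, 0 passed in either direction, and their median log2 difference was 0.03 against -0.00337 for all genes tested. The smallest p were those of Tal1, a blood and endothelial partner of Gata2, at 0.23 (SE 0.143), Cited2, a coactivator, at 0.15 (SE 0.0924), and Ep300, an acetyltransferase, at 0.16 (SE 0.110). The Friend-of-GATA genes, which encode zinc finger cofactors that bind the GATA fingers, were read above the filter. Zfpm1 had 180, 207 and 212 in Mest-KO and 245, 242 and 126 in control at its brighter probe set, and Zfpm2 had 80.0, 157 and 90.2 in Mest-KO and 125, 105 and 112 in control. Groups of both genes overlapped. Of 7 other proteins with GATA-type fingers, 5 were tested and 0 passed. Trps1, a repressor with a single such finger, was the one with the smallest p, with 1168, 1295 and 1203 in Mest-KO and 848, 1059 and 1102 in control. Its groups did not overlap (log2 difference 0.29, SE 0.133), but its other probe sets above the filter gave 0.02, 0.20 and -0.12. Gatad1 and Gatad2a, which belong to chromatin complexes, gave -0.06 (SE 0.0857) and -0.03 (SE 0.0748).

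Of 25 genes of the early ear that have been linked to Gata3, 20 were tested. Of these 13 lay higher and 7 lower, and 0 passed the adjusted threshold in either direction. The list's median was 0.09. Fgf3, a signal of the hindbrain and early ear, had 302, 240 and 254 in Mest-KO and 191, 162 and 162 in control, a log2 difference of 0.56 (SE 0.122). Its groups did not overlap, and its other probe sets gave 0.63 and 0.29. Gli1, a target of hedgehog signalling, had 81.7, 119 and 80.3 in Mest-KO and 169, 139 and 183 in control (-0.97, SE 0.243). It was the member of this list closest to Gata3 in size, and its groups did not overlap either. Neurod1, which drives the differentiation of otic neuroblasts, had 1945, 1379 and 1490 in Mest-KO and 994, 1122 and 1096 in control (0.57, SE 0.144). The adjusted p of these 3 in limma were 0.650, 0.777 and 0.777.

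Fgf10, a growth factor whose otic expression depends on Gata3 in the mouse, had 96.5, 110 and 121 in Mest-KO and 102, 84.5 and 79.8 in control. Its groups overlapped, and the log2 difference was 0.17 (SE 0.143 in the fit of all probe sets). Eya1, a placodal regulator, had 3830, 4082 and 3108 in Mest-KO and 4147, 3816 and 3770 in control at its brightest probe set, with overlapping groups. A dimmer Eya1 probe set had 329, 349 and 281 in Mest-KO and 383, 357 and 441 in control, groups that did not overlap (-0.34, SE 0.159 in the fit of all probe sets), and the remaining one gave -0.24 with overlap. Sox2, a prosensory factor, had 2913, 3181 and 2940 in Mest-KO and 2870, 2710 and 2407 in control, groups that lay just apart as deposited but overlapped once normalized (log2 difference 0.18). Lmx1a, Pax8, Bmp4 and Dlx5 differed by -0.05, 0.10, -0.04 and 0.03. Most genes of this list, read from their brightest probe sets, differed by less than 0.2 log2 units in either direction.

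Of 12 genes of the ear and the tissue around it that have been linked to Gata2, all were tested, 7 were higher, 5 lower and 0 passed, with a median of 0.05. Prrx2, a mesenchymal homeobox gene, gave 0.44 (SE 0.220), with 145, 211 and 287 in Mest-KO and 152, 143 and 146 in control, so that Mest-KO 1 lay among the control pools. Ntn1, a secreted guidance factor needed for the semicircular canals, gave -0.25 (SE 0.160), and Tbx18, a gene of the periotic mesenchyme, 0.67 (SE 0.477). Of 18 heart genes linked to Gata4 and Gata6, 6 were above the filter, against 12462 of the 18193 genes named on the array. Of these 6 heart genes 5 were higher and 0 past the threshold, with a median of 0.25. The smallest p belonged to Myh7, Myl7 and Tnni3, genes of the contractile apparatus, at 0.52 (SE 0.176), 0.76 (SE 0.513) and 0.23 (SE 0.170), all of them under an intensity of 107. Nkx2-5, Tbx5, Hand1 and Hand2, the partners of Gata4 that define heart progenitors, were below the filter. Of 12 endoderm genes, 3 were tested and 0 passed. Ttr, a carrier protein gene, ranged from 37.3 to 435 in Mest-KO and from 111 to 4536 in control (-2.68, SE 1.45). Pax9 and Cldn6 gave -0.42 (SE 0.267) and -0.11 (SE 0.0982).

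**Figure D3:**
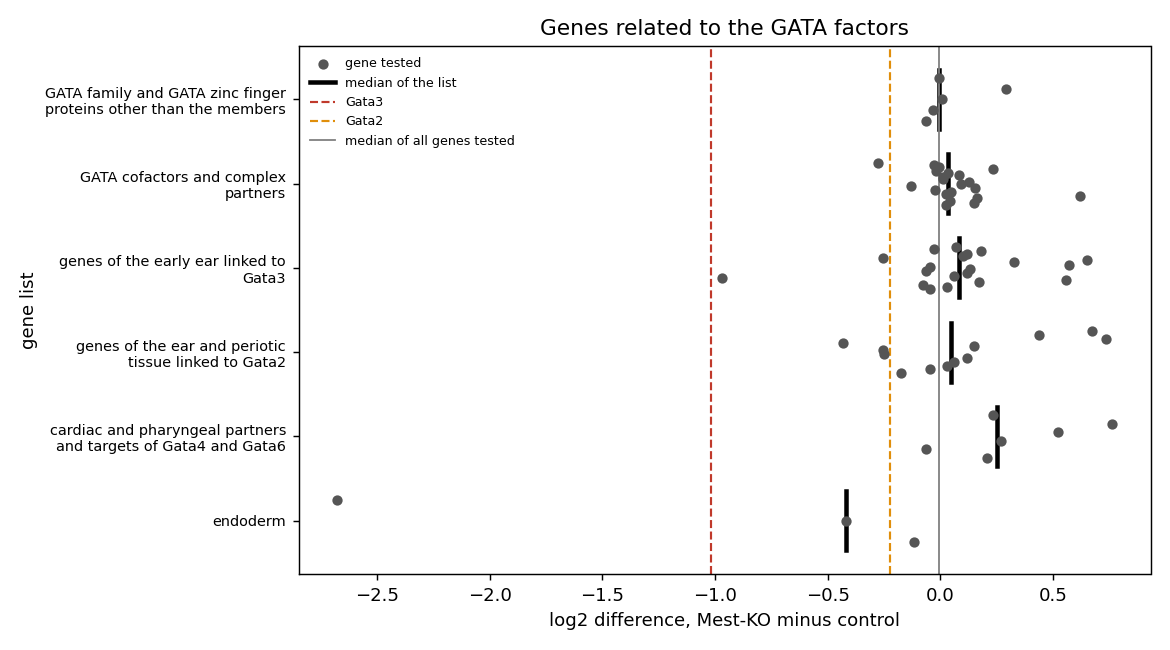
Log2 differences, Mest-KO minus control, of the genes tested in 6 lists related to the GATA factors (points), with the median of each list (black bars), Gata3 at -1.02 (red dashes), Gata2 at -0.22 (orange dashes) and the median of all genes tested (grey). Most points lie near 0, and Gli1 at -0.97 and Ttr at -2.68 lie farthest to the left.

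Gata3 and Gata2 also occur outside the vesicle, so markers of the cells that a dissection can hold are given beside them. With pooled tissue, fewer cells of a type and less RNA per cell cannot be told apart. The 13 epithelial markers tested had a summed intensity of 58068 to 63387 in Mest-KO and 62882 to 67464 in control, overlapping ranges, with 4 genes higher, 9 lower and a median log2 difference of -0.05. Krt8 and Krt18, keratins of simple epithelium, gave -0.20 (SE 0.0958) and -0.21 (SE 0.103), and both had groups that did not overlap. Genes of other marker lists had normalized groups that lay apart too. These were 1 higher and 1 lower of mesenchyme, 3 higher of neuroblasts and ganglion, 2 higher of neural crest and 1 lower of hindbrain. Over all genes tested, 10.6% did not overlap in either direction. The 14 mesenchyme markers summed to 4653 to 8889 in Mest-KO and 4227 to 7520 in control. Of these 11 lay higher and 3 lower, with a median of 0.43 against -0.00337 for all genes tested, with Snai2 at 0.56 (SE 0.124) and Lum at -0.48 (SE 0.123). The 10 markers of otic neuroblasts and ganglion summed to 8506 to 9055 in Mest-KO and 7903 to 8681 in control (6 higher, 4 lower, median 0.22), with Insm1 and Neurod1 at 1.04 (SE 0.217) and 0.57. Their mean log2 level was 8.53 to 8.77 in Mest-KO and 8.22 to 8.54 in control.

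Of 10 endothelial markers 4 were above the filter, against 12462 of the 18193 genes named on the array, with Pecam1, Cdh5 and Kdr below it. These 4 summed to 279 to 432 in Mest-KO and 264 to 305 in control (4 higher, median 0.23). Flt1 and Tek gave 0.69 (SE 0.315) and 0.17 (SE 0.149). Red blood cell markers, of which 6 of 10 were tested, summed to 24193 to 27790 in Mest-KO and 25267 to 28341 in control (3 higher, 3 lower, median -0.01), with Klf1 at -0.34 and Hba-x at -0.08. Leukocyte markers (4 of 10) summed to 224 to 333 in Mest-KO and 242 to 516 in control (4 lower, median -0.48), with Fcer1g at -0.86 and Tyrobp at -0.65. Muscle markers (3 of 10, without Myod1, Myf5 and Des) summed to 164 to 233 in Mest-KO and 117 to 167 in control (3 higher, median 0.27), with Msc at 0.27 and Myl7 at 0.76. Their mean log2 level was 5.75 to 6.13 in Mest-KO and 5.26 to 5.61 in control, which did not overlap. Neural crest markers (5 of 8) summed to 8650 to 8728 in Mest-KO and 8647 to 9479 in control (4 higher, 1 lower, median 0.35), with Cdh6 at 0.69 and Ngfr at 0.65. Hindbrain markers (3 of 8) summed to 207 to 256 in Mest-KO and 217 to 352 in control (1 higher, 2 lower, median -0.09), with Lhx1 at -0.67 and Nkx6-1 at 0.26. Markers of surface and pharyngeal epithelium (5 of 8) summed to 1862 to 2637 in Mest-KO and 1850 to 2132 in control (3 higher, 2 lower, median 0.14), with Pax9 at -0.42 and Trp63 at 0.70. No marker was listed at 0, none passed over all genes, and the part of these cells in the Gata3 and Gata2 values was not tested.

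**Figure D4:**
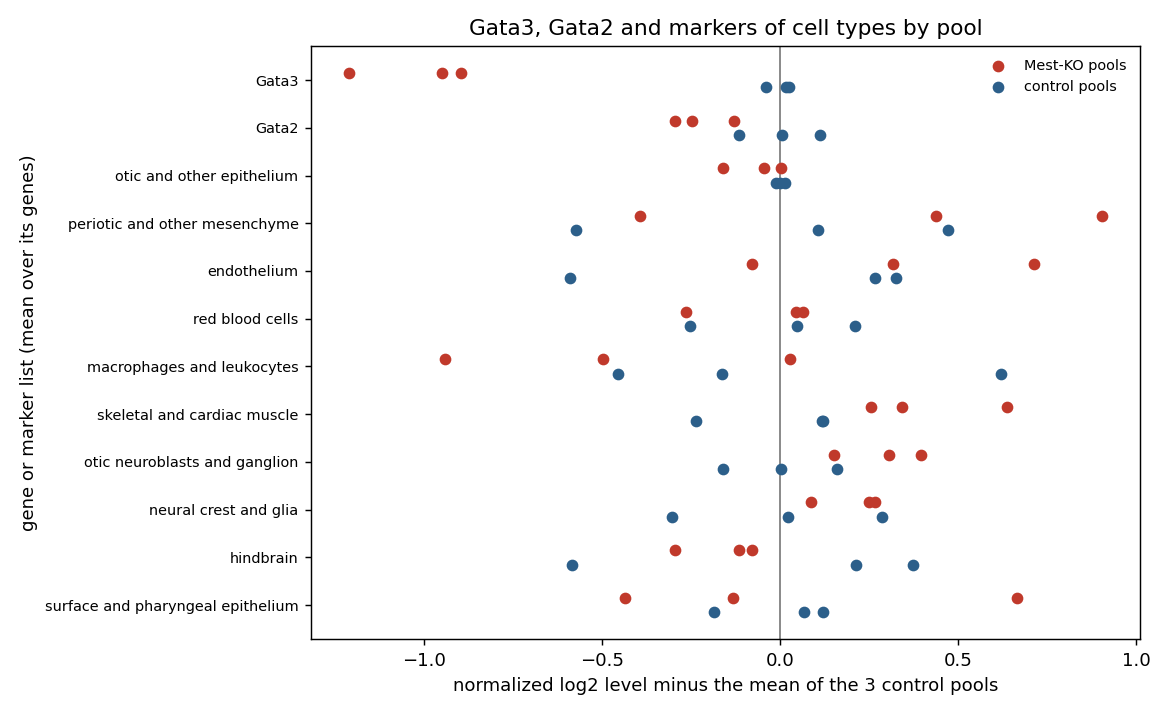
Normalized log2 level of Gata3, Gata2 and 10 lists of cell type markers (mean over the genes of a list) in each Mest-KO pool (red, upper) and control pool (blue, lower), relative to the mean of the 3 control pools. Gata3 is lower by about 1 unit in every Mest-KO pool, while the epithelial, mesenchymal, endothelial and blood lists overlap between the groups.

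Over the 6 arrays, the normalized levels of Gata3 and Gata2 had a Pearson correlation of 0.844, and the 2 Gata2 probe sets 0.535. The points share their arrays and the 2 groups, so these are descriptions. The genes most like Gata3 were Arntl, Mppe1, Tdrp, Car2 and Zfp512, with correlations of 0.985 to 0.991 and log2 differences between -0.42 and -0.14. Car2, as an example, had 2523, 2461 and 2629 in Mest-KO and 3146, 3363 and 3313 in control. The genes most like Gata2 were Calml4, Pef1, Mrpl20, Rps2 and Rpl38 (0.967 to 0.987). Rpl38, a ribosomal protein gene, had 16624, 16309 and 16653 in Mest-KO and 16463, 20292 and 20537 in control, so that control 1 stood with the Mest-KO pools. Among 12461 genes compared, 118 exceeded a correlation of 0.9 with Gata3 and 84 with Gata2. With 6 arrays such values arise for many genes, and when an array was left out at most 2 of the 5 genes stayed among the 5 most like Gata3 and at most 1 among those most like Gata2.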

How the data were processed

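Affymetrix mouse arrays measured RNA from 3 Mest-KO and 3 control pools. The submitters' processing notes list Affymetrix Expression Console 1.1. What the authors deposited is 1 linear intensity per probe set and array, scaled on every array to a trimmed mean of 500.0 with 2% trimmed at either end, as the values show. No source used here names the summarisation or background correction.

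Here, a floor of 1 was set before log2 values were quantile normalized, after which 64 control probe sets were dropped. Of 45037 others, 34945 had 1 symbol, 932 had several and 9160 are unnamed here, and 34741 symbols were updated through RefSeq. Genes were read from their brightest probe set and kept above the 40th percentile (intensity 34.4), which left 12462. Mest-KO was set against control in limma 3.58.1 (R 4.3.3; lmFit and eBayes without trend or covariate), with Benjamini-Hochberg adjustment at 0.05. Every probe set was also fitted without a filter. The number of arrays limits the precision. The limma fit was tested on simulated data, but the floor, the normalization, the choice of probe sets and the filter were not.

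The members and lists were chosen with earlier results of these data known. The text names all member probe sets, the 3 genes of smallest p of each related list, 2 of each marker list, and the 5 genes most like Gata3 and Gata2. Gata1, Gata5, Zfpm1, Zfpm2, Fgf10, Eya1, Sox2, Lmx1a, Pax8, Bmp4, Dlx5, Rpl38 as an example, and the chromosomal neighbours were added after values were seen. Alternatives were other scalings, floors, filters, probe set rules, variance priors, array weights, a replicate block, and arrays left out while the values and filter of all 6 arrays were kept. Python 3.11.15 with matplotlib 3.10.9 drew the figures.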

Additional observations from a re-analysis of the deposited data

Results flagged for a closer look

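On Mest-KO 3 the 27 control probe sets for Bacillus transcripts, which are used in no comparison, read 14.4 (median intensity), above the highest control array at 5.62. All probe sets of Gata4 and Gata6 lay in the same range of intensity on that array, between 7.84 and 15.7. The part of this in their values was not tested.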

How the results depend on the processing

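The log2 difference of Gata3 lay below 0 under all 28 alternatives run, from -1.17 to -0.92, and that of Gata2 from -0.42 to -0.17. Many of these alternatives could not move it. The variance prior, the block, the filter and the threshold left the difference at its main value, as did the probe set rules for Gata3 with its 1 probe set. Each trend fit repeated the difference of its counterpart without the trend. The number of GATA genes past the threshold, 0 in the main setting, was 1 (Gata3) in 14 of the 28 alternatives. These were median centring (-1.17, limma adjusted p = 0.0131), the filter at the 60th percentile (-1.02, 0.0174, with fewer genes tested), the trend (-1.02, 0.000973), the trend with robust fitting (0.000362) and, chosen after seeing the data, a threshold of 0.10, the trend with the deposited scaling (-1.02, 0.000703), with a replicate block (0.00594), in pools of both sexes (-1.07, 0.0212) and with each array left out in turn. For Mest-KO replicates 1, 2 and 3 left out these were -1.05, -0.92 and -1.08, and for control replicates 1, 2 and 3 -1.01, -1.04 and -1.01 (0.00243 to 0.0134). Without the trend the count was 0 with each array left out (-1.08 to -0.92, adjusted p 0.193 to 0.610). The same held in the pools of both sexes, where limma gave Gata3 an adjusted p of 0.849, the highest of all alternatives. Other fits at 0 gave Gata3 0.321 (no filter), 0.321 (probe set chosen by variability) and 0.254 (probe sets averaged). They also gave 0.115 (deposited scaling), 0.0966 (floor at 16) and 0.0861 (array weights). The count of GATA probe sets was 1 (Gata3) in each of the settings with the trend and 0 elsewhere. Median centring also moved all genes: their median became -0.14, 78.5% of them lay lower against 50.9%, and relative to that median Gata3 stood at -1.04 and Gata2 at -0.28. It called 21 genes lower and 4 higher. With the replicate number as a block the adjusted p of Gata3 was 0.831 (-1.02) and that of Gata2 0.902. Deviations of same-numbered pools from their group means correlated at -0.11, -0.01 and -0.01. Whether pools of the same number were handled together is not stated and was not tested. The Tbx1 difference, -0.03 over all arrays, ran between -0.14 and 0.06 when 1 array was dropped, and lay above 0 without Mest-KO 2 (0.04), Mest-KO 3 (0.02) or control 1 (0.0589). Of the 5 genes most like Gata3 and Gata2, 0 and 1 remained with median centring, 0 and 2 with the deposited scaling, 0 and 0 in pools of both sexes, and 0 to 2 and 0 to 1 with an array left out. The count of related genes past the threshold was 0 in the 10 alternatives run. The counts past 0.05 over all genes were 6 to 17 with the trend and an array left out. With a floor at 16, the probe sets of Gata4 and Gata6 gave no value, other than 1418863_at at -0.12. The cause of these differences was not tested.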
